A study of Mus musculus with 69 samples.

Results

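The acute-phase response is the rise of a set of secreted proteins after injury, infection or exposure to particles. The liver is their main source in the blood, and airway and alveolar cells, macrophages and neutrophils also make several of them in the lung. The set described here holds 9 acute-phase genes that are not serum amyloid A genes: Lcn2, Orm1, Orm2, Hp, Hpx, Cp, Fgg, Fgb and Itih4. They were picked by name, each being matched through the transcript that its array probe was designed for, and they stand against 17628 genes tested in all. Their behaviour across these same arrays was known when they were picked. Their changes from the vehicle, the differences of these changes between the days, and the differences between the particles are therefore a description and not a test. Every member had 1 probe, and all 9 passed the filter on dim probes.

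RNA levels were read in lungs from 69 female C57BL/6 mice, 1 mouse per 2-colour Agilent array, against a common mouse reference RNA. The mice were 5 to 7 weeks old on delivery, had 1 to 3 weeks to acclimatise, and had 1 instillation into the trachea. The 3 exposures were vehicle alone (2% serum in water, named an H2O control in the labels), titanium dioxide nanoparticle NRCWE-001, which is not charged, and NRCWE-002, which is positively charged. Each particle was given at 18, 54 or 162 µg, and lungs were taken on day 1 or day 28. There were 5 mice in each of the 14 groups, except 4 in the vehicle group of day 28. A small piece of frozen whole lung was used for RNA, so every value is an average over all cells of that piece, and more cells of a type cannot be told apart from more RNA per cell. Each level below is a log2 ratio of lung RNA to reference RNA, and levels are compared between groups for 1 gene, never between genes.

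The members do different work. Lcn2 encodes lipocalin 2, which binds bacterial siderophores and so keeps iron from bacteria. Orm1 and Orm2 encode orosomucoids, also called alpha-1-acid glycoproteins, which carry small molecules in the blood. Hp encodes haptoglobin, which binds free haemoglobin, and Hpx encodes hemopexin, which binds free haem. Cp encodes ceruloplasmin, a copper-containing ferroxidase. Itih4 encodes a heavy chain of the inter-alpha-trypsin inhibitor family, and Fgg and Fgb encode the gamma and beta chains of fibrinogen, the precursor of fibrin. In hepatocytes these genes are known to be induced by interleukin 6, interleukin 1 and related cytokines, through STAT3, C/EBP and NF-kB factors.

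The upstream sequences of 5 members are shown, which are the members with a match to the C/EBP letters given below. A match in every sequence shown thus follows from this choice. Of these 5 members, 4 moved together on day 1 while Fgb did not. Itih4, with a match to the STAT letters, and Fgg, with 0 matches, also had a sequence and are not shown. The sequences are the 250 bases before the transcription start, from the RefSeq promoter table of build GRCm38.p6, written 5′ to 3′ on the strand of the gene. Capitals mark matches to any of 3 short motifs on either strand, which were TTGCNNAA for C/EBP, TTCNNNGAA for STAT and GGGANNTTC for NF-kB factors. No base lay in matches of 2 motifs.
Lcn2, chr2:32387740-32387989, strand -: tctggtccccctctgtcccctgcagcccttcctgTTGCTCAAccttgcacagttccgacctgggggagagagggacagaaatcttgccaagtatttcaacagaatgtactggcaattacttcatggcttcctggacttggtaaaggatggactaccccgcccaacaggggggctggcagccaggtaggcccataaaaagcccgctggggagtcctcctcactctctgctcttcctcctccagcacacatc
Orm2, chr4:63362199-63362448, strand +: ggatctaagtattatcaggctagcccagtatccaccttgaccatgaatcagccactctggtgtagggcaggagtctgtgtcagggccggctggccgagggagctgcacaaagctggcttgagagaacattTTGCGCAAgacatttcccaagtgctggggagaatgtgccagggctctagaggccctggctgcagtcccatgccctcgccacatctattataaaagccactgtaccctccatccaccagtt
Hpx, chr7:105600117-105600366, strand -: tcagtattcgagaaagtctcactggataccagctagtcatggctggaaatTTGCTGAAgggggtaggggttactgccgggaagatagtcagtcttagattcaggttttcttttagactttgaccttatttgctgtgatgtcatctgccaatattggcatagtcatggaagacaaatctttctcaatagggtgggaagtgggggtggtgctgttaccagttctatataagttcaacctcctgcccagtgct
Cp, chr3:19956999-19957248, strand +: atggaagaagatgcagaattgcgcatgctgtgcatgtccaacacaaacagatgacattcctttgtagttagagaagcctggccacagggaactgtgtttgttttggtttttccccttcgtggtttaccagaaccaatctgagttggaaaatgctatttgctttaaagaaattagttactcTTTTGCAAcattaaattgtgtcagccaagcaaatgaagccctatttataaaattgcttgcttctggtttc
Fgb, chr3:83049864-83050113, strand -: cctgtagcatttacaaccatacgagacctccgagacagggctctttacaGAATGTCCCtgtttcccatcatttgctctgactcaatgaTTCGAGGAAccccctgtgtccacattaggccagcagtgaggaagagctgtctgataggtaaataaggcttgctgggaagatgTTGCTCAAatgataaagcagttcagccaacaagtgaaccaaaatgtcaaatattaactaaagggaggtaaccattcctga

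The table gave such a window for 7 of the 9 members, all but Orm1 and Hp, and 2 overlapping windows for Cp. The second Cp window is shown because it holds a match, and the first holds 0 matches to any of the 3 motifs. The C/EBP letters occurred in 5 of the 7 members (Lcn2, Orm2, Hpx, Fgb and, in 1 of its 2 windows, Cp) and in 9.56% of all 32851 windows. They began 216 bases before the start in Lcn2, 120 in Orm2, 200 in Hpx, 70 in Cp and 80 in Fgb. The STAT letters occurred in Fgb and Itih4 and in 7.02% of all windows, and the NF-kB letters in Fgb alone and in 3.23%. The Fgb window was the one with all 3 motifs, although Fgb did not follow the dose. A match is a run of letters and was not tested as a site.

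The tissue matched its label. All 8 lung markers, among them the surfactant gene Sftpc and the club cell gene Scgb1a1, were well above background on 69 of 69 arrays. In lung RNA the share of spots well above background was 61.4% to 87.8% of an array, and 0 spots were saturated. The arrays lay on 18 slides of 3 or 4 arrays, each holding 3 or 4 groups, and arrays of 1 slide resembled each other (correlation 0.47 after group means were removed). Hepatocyte markers stood apart on 4 arrays, where their mean log2 ratio was over 1. It was 2.89 on replicate 5 of 54 µg NRCWE-002 on day 28 (1.00 on replicate 3 of the same group), 1.51 on replicate 3 of 18 µg NRCWE-001 on day 1 and 1.22 on replicate 3 of 162 µg NRCWE-002 on day 1. On the 9 vehicle arrays this mean was 0.57 to 0.74. Replicate 5 of 162 µg NRCWE-001 on day 1 stood apart in the members themselves, at the level of vehicle arrays. For Lcn2, Orm1, Orm2, Hp, Hpx, Cp and Itih4 the change of its group from vehicle is given with and without it.

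**Figure D1:**
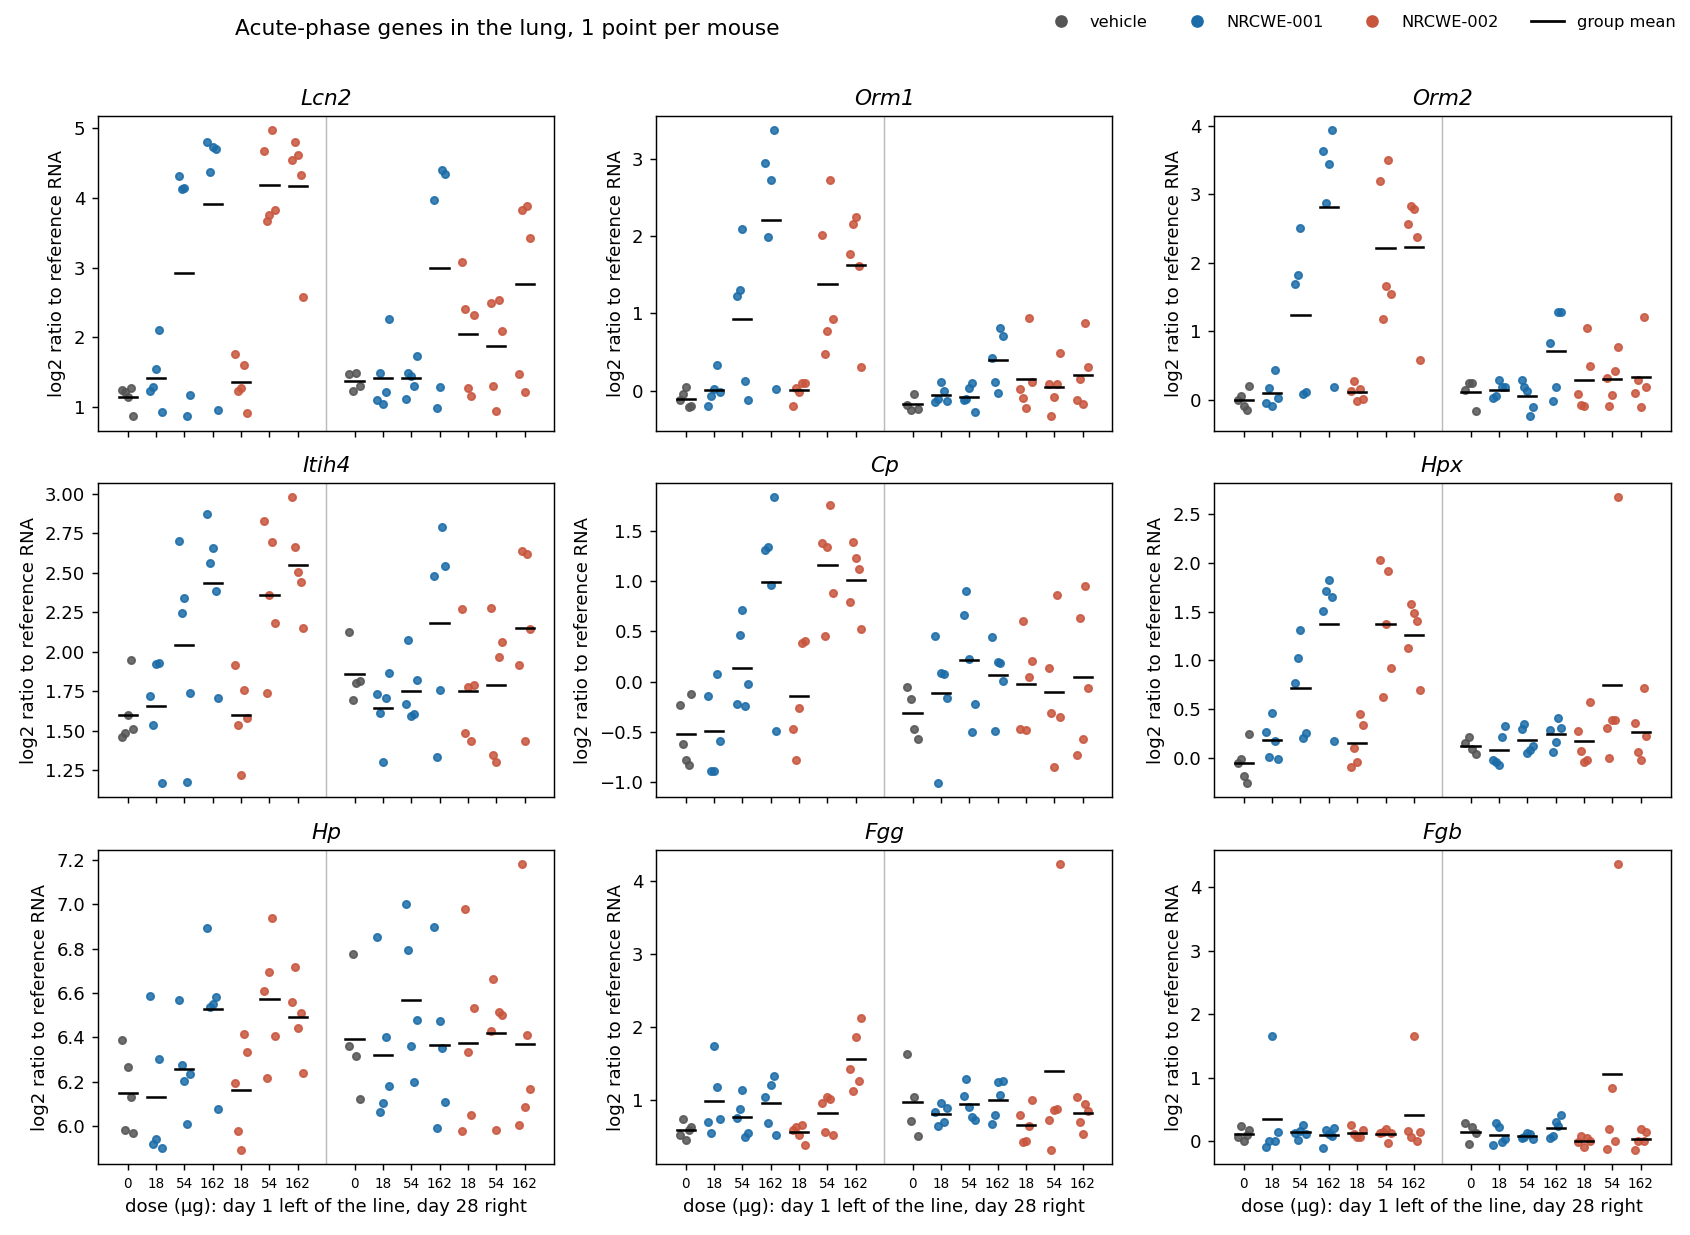
Log2 ratio to the reference RNA of the 9 acute-phase genes on each of the 69 arrays, with 1 panel per gene on its own y axis, dose in µg on the x axis, and points coloured by vehicle, NRCWE-001 or NRCWE-002. Black bars are group means, and the panels show Lcn2 between 3.67 and 4.97 on all 5 arrays at 54 µg NRCWE-002 on day 1, against 0.87 to 1.28 in vehicle mice.

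Lcn2 had the widest day 1 change of the members under NRCWE-002. In the 5 vehicle mice of day 1 its log2 ratios were 1.25, 1.22, 1.14, 1.28 and 0.87. At 54 µg NRCWE-002 they were 4.68, 3.67, 3.75, 4.97 and 3.83, and at 162 µg they were 4.54, 4.80, 4.61, 4.32 and 2.58. Every one of these 10 arrays lay above every vehicle array, and the 1 low value at 162 µg belonged to replicate 5. The group means were 4.18 ± 0.60 (SD, n = 5) and 4.17 ± 0.91 (n = 5), against 1.15 ± 0.16 (n = 5) in vehicle mice. The change was 3.03 ± 0.61 (log2, SE) at 54 µg and 3.02 ± 0.61 at 162 µg, or 8.14-fold and 8.10-fold, and both doses gave nearly the same mean. Under NRCWE-001 the mice of a group split. At 54 µg the log2 ratios were 4.31, 4.12, 4.14, 0.88 and 1.18, and at 162 µg they were 4.79, 4.36, 4.72, 4.70 and 0.96. The mice were either above all vehicle arrays, by a wide gap, or inside the vehicle range, as 2 were at 54 µg and 1 at 162 µg. The split overlapped with slide. Replicate 5 of both doses lay on the same slide and replicate 4 of 54 µg on another, neither with a vehicle array. Replicates 1 to 3 of both doses lay on slides with a vehicle array, and replicate 4 of 162 µg did not. The slide with both replicates 5 also held replicate 3 of 54 µg NRCWE-002, at 3.75. Mouse and slide cannot be told apart here. Under NRCWE-001 the change was 1.77 ± 0.61 at 54 µg and 2.75 ± 0.61 at 162 µg (6.75-fold), and without replicate 5 it was 3.49 ± 0.58 at 162 µg. At 18 µg NRCWE-001 gave 0.27 ± 0.61 and NRCWE-002 gave 0.21 ± 0.61, with 3 of 5 arrays above all vehicle arrays under each particle and the highest at 2.11.

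Lcn2 also had the largest change of the 9 members at 162 µg on day 28, under each particle. In the 4 vehicle mice of day 28 its log2 ratios were 1.47, 1.23, 1.49 and 1.31. At 162 µg NRCWE-001 they were 3.97, 0.99, 1.29, 4.40 and 4.34, and at 162 µg NRCWE-002 they were 1.47, 3.83, 1.22, 3.88 and 3.42. In each group 3 of 5 mice were at 3.42 or higher, above every vehicle mouse, and 2 were not, so the groups overlapped. The change was 1.62 ± 0.65 under NRCWE-001 and 1.39 ± 0.65 under NRCWE-002. At 18 µg NRCWE-002 on day 28, replicates 1, 2 and 5 were at 3.08, 2.41 and 2.32, and the other 2 at 1.28 and 1.16. At 54 µg NRCWE-001 the range was 1.11 to 1.74, which spans that of vehicle. At 54 µg NRCWE-002 it was 0.95 to 2.54, with 3 of 5 arrays above all vehicle arrays.

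Orm1 and Orm2 are neighbouring paralogs of like sequence, and whether each probe sees both transcripts was not tested. Their levels went together over the 69 arrays (Pearson r = 0.98, and 0.97 within groups). In vehicle mice of day 1, Orm2 was not well above background on any of 5 arrays, at -0.01, 0.06, -0.09, -0.15 and 0.20. At 162 µg NRCWE-001 it was at 3.64, 2.88, 3.44, 3.94 and 0.18, well above background on 5 of 5. In the sample channel Orm2 was at least 7.72-fold higher there than in vehicle mice, and the ratio to the reference changed by 2.81 ± 0.43. For such limits each vehicle array was set to its measured signal. Where that was below the lowest signal that counts as well above background, this lowest signal was used instead. Without replicate 5 the change was 3.47 ± 0.38. At 162 µg NRCWE-002 the ratios were 2.57, 2.83, 2.79, 2.38 and 0.58, at least 5.50-fold higher, and at 54 µg they were 3.20, 1.18, 1.66, 3.51 and 1.55, at least 5.00-fold higher. All 10 of these arrays were above all vehicle arrays. Upward separation of that kind held for 1.7% of all genes at 54 µg and for 3.55% at 162 µg, and Lcn2, Orm1, Orm2, Hpx and Cp were separated at both doses. At 54 µg NRCWE-001 the split seen for Lcn2 recurred in the same mice, with 1.69, 1.82 and 2.51 in replicates 1 to 3 and 0.08 and 0.11 in replicates 4 and 5.

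In the reference Orm1 was well above background on 23 of 69 arrays and Orm2 on 19. For Orm1 1 of 5 vehicle arrays of day 1 was well above background in lung RNA, with log2 ratios of -0.12, -0.04, 0.05, -0.21 and -0.19. At 162 µg NRCWE-001 Orm1 was at 2.94, 1.98, 2.72, 3.37 and 0.02, and at 162 µg NRCWE-002 at 1.77, 2.16, 2.24, 1.62 and 0.31. Replicate 5 was again the lowest in both groups. The changes were 2.31 ± 0.36 (2.86 ± 0.32 without replicate 5) and 1.72 ± 0.36. On day 28 the change of Orm1 at 162 µg was 0.58 ± 0.39 under NRCWE-001 and 0.39 ± 0.39 under NRCWE-002. Orm1 at 162 µg NRCWE-001 was at 0.42, 0.11, -0.03, 0.81 and 0.71, all above the 4 vehicle arrays, which ended at -0.04. Such separation held for 0.709% of all genes in this comparison. For Orm1 4 of the 5 exposed and 0 of the 4 vehicle arrays were well above background. In the sample channel Orm1 was at least 1.73-fold higher, and here the vehicle level used was the measured signal itself. Orm2 there was at 0.83, -0.02, 0.19, 1.29 and 1.28, with 3 of 5 arrays above vehicle, and its change was 0.59 ± 0.45. At 18 µg NRCWE-002 on day 28, replicate 4 had Orm1 at 0.94 and Orm2 at 1.05 while its Lcn2 was 1.16, below the vehicle range of Lcn2.

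The genes for the haem and haemoglobin carriers differed from each other. Hpx was at -0.05, -0.01, -0.19, -0.26 and 0.25 in vehicle mice of day 1. It was at 1.50, 1.71, 1.83, 1.65 and 0.18 at 162 µg NRCWE-001 and at 1.13, 1.57, 1.49, 1.41 and 0.70 at 162 µg NRCWE-002. The group of NRCWE-002 lay above all vehicle arrays, as did 4 of 5 mice of NRCWE-001. The changes were 1.43 ± 0.28 (1.72 ± 0.27 without replicate 5) and 1.31 ± 0.28, and at 54 µg NRCWE-001 gave 0.77 ± 0.28 and NRCWE-002 gave 1.42 ± 0.28. Hp was bright on every array of the study, from 5.89 to 7.18, and moved little. Its day 1 changes at 162 µg were 0.38 ± 0.19 (0.49 ± 0.20 without replicate 5) and 0.35 ± 0.19. For each particle 4 of 5 arrays lay above all vehicle arrays. On day 28 the changes of Hp at 162 µg were -0.03 ± 0.20 and -0.02 ± 0.20.

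Cp, the ferroxidase gene, was at -0.24, -0.62, -0.78, -0.83 and -0.13 in vehicle mice of day 1. At 54 µg NRCWE-002 it was at 1.38, 0.46, 1.34, 1.76 and 0.88, and at 162 µg it was at 0.79, 1.39, 1.23, 1.12 and 0.53, without overlap with vehicle. The changes were 1.68 ± 0.33 and 1.53 ± 0.33. Of the mice at 162 µg NRCWE-001, 4 of 5 lay between 0.96 and 1.84 and replicate 5 at -0.49, a change of 1.51 ± 0.33 with it and 1.88 ± 0.32 without it. On day 28 Cp differed between mice in every group, from -1.01 to 0.46 at 18 µg NRCWE-001 for example, and its changes at the 3 doses were 0.20 to 0.53 for NRCWE-001 and 0.21 to 0.36 for NRCWE-002, each with an SE of 0.35.

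At 162 µg on day 1 Itih4 changed less than Hpx and Cp and more than Hp, and where it was above all vehicle arrays Lcn2 was above them as well. In vehicle mice of day 1 it was at 1.46, 1.49, 1.60, 1.95 and 1.51. It was at 2.87, 2.56, 2.66, 2.38 and 1.71 at 162 µg NRCWE-001, and at 2.98, 2.66, 2.50, 2.44 and 2.15 at 162 µg NRCWE-002. The changes were 0.84 ± 0.24 and 0.95 ± 0.24, or 1.79-fold and 1.93-fold. Without replicate 5 the change under NRCWE-001 was 1.02 ± 0.25. On day 28 at 162 µg NRCWE-001 the replicates 1, 4 and 5, which had the high Lcn2, had Itih4 at 2.48, 2.79 and 2.54, above the vehicle range of 1.70 to 2.12, and the other 2 were at 1.33 and 1.76. Under NRCWE-002 the replicates 2, 4 and 5 were at 2.64, 2.62 and 2.15. Over the 69 arrays Itih4 had a Pearson r of 0.91 with Lcn2, and 0.84 within groups. These are descriptions over arrays that share slides and a reference RNA.

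**Figure D2:**
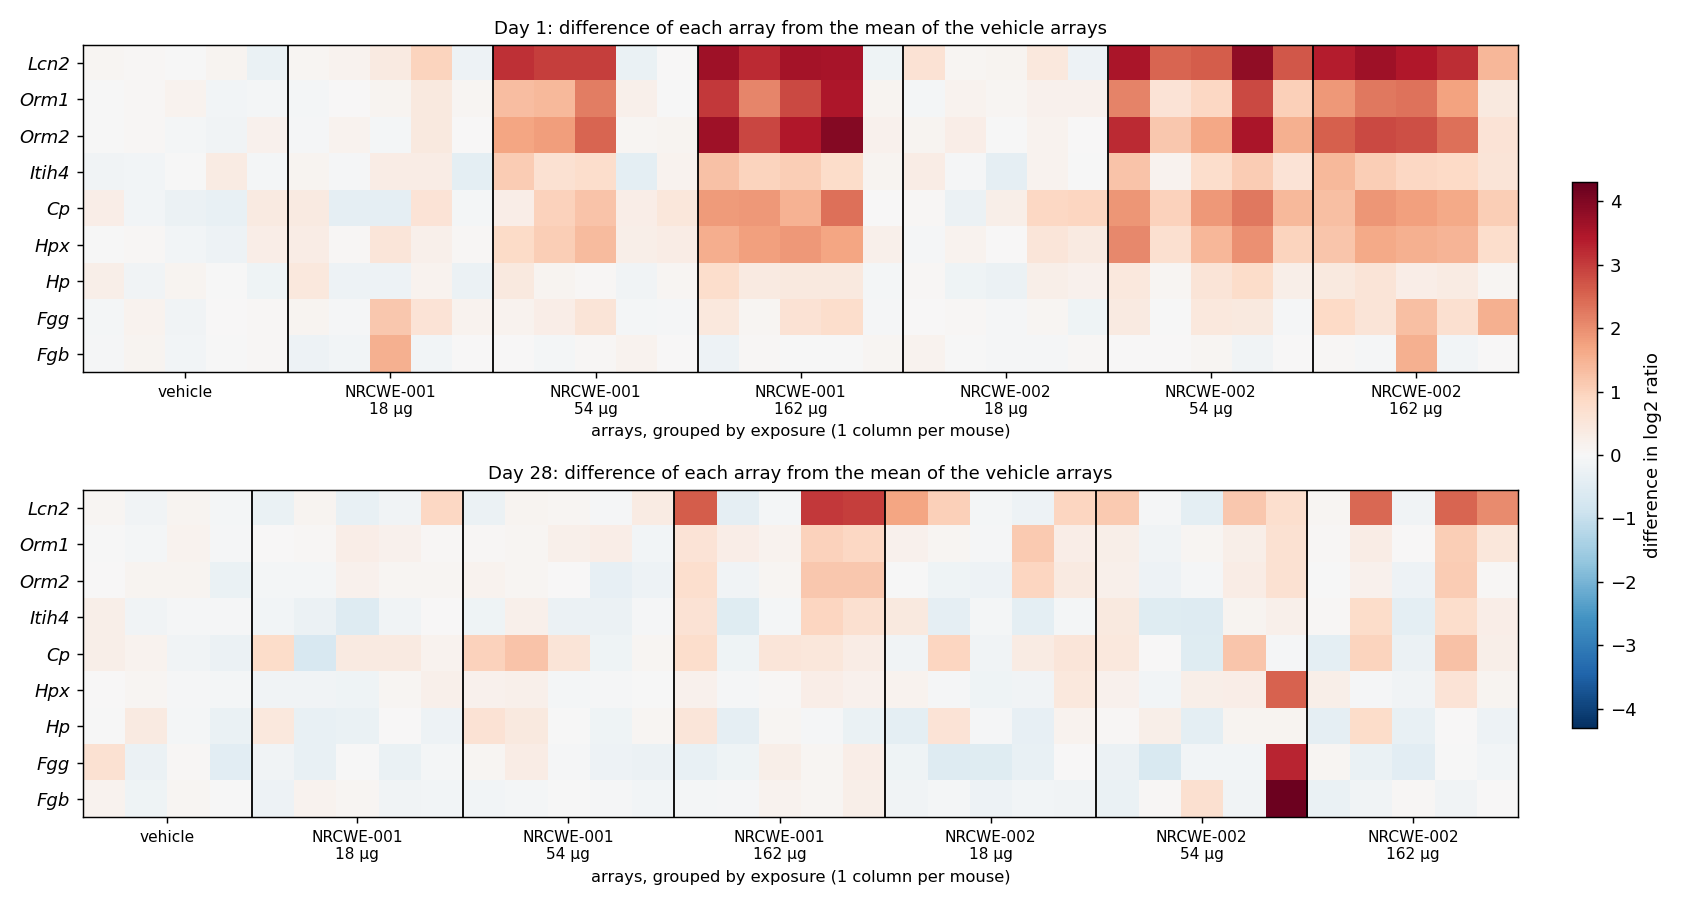
Difference of each array from the mean of the vehicle arrays of its day, in log2 units, with genes in rows and 1 mouse per column, grouped by exposure. Replicate 5 of 162 µg NRCWE-001 on day 1 (0 of 9 genes above all vehicle arrays) stands between mice with 7 or 8 genes above, and on day 28 the Fgb and Fgg signal of replicate 5 at 54 µg NRCWE-002 is in a single column.

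Of the 2 fibrinogen chains, Fgb did not follow the dose. It was well above background on 31 of 69 arrays. On day 1 its group medians were 0.01 to 0.15, and at 162 µg NRCWE-001 gave a change of -0.02 ± 0.36 and NRCWE-002 one of 0.29 ± 0.36. The second value came from 1 mouse, replicate 3 at 1.66, while the other 4 were at 0.00 to 0.16. Fgb was also at 1.66 on replicate 3 of 18 µg NRCWE-001 on day 1, at 0.84 on replicate 3 of 54 µg NRCWE-002 on day 28 and at 4.36 on replicate 5 of that group. These 4 arrays were the 4 with the highest hepatocyte markers. Outside them Fgb ran no higher than 0.41 on any array. On replicate 5, all 10 tested hepatocyte markers were well above background, with Alb at 4.74, Ahsg at 4.81 and Apoa2 at 3.75, against study medians of 0.36, 0.47 and -0.03. Fgg on that array was at 4.24, against 0.30 to 0.86 in the rest of its group, and Hpx at 2.67, against -0.00 to 0.39. Without the 4 arrays the changes at 54 µg NRCWE-002 on day 28 went from 0.91 to -0.12 for Fgb, from 0.43 to -0.34 for Fgg and from 0.63 to 0.11 for Hpx, and the part of these markers in the result was not tested.

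Fgg was well above background in lung RNA on 69 of 69 arrays and in the reference on 0 of 69, so its ratio follows the lung signal over a reference at background. At 162 µg NRCWE-002 on day 1 it was at 1.42, 1.11, 1.86, 1.26 and 2.12, all above the vehicle mice at 0.51, 0.73, 0.44, 0.58 and 0.63. The changes at 18, 54 and 162 µg NRCWE-002 on day 1 were -0.03, 0.23 and 0.98, each with an SE of 0.32. At 162 µg the change was 0.90 ± 0.18 in the fit without the 4 arrays, which leaves out replicate 3 here, and that fit called it. At 162 µg NRCWE-001 it was at 1.04, 0.67, 1.20, 1.32 and 0.51, which overlapped vehicle. The order of mice also differed from that of the other members, since replicate 5 of 162 µg NRCWE-002 was the lowest of its group for Lcn2, Orm1, Orm2, Hp, Hpx, Cp and Itih4 and the highest for Fgg, with a hepatocyte marker mean of 0.69.

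**Figure D3:**
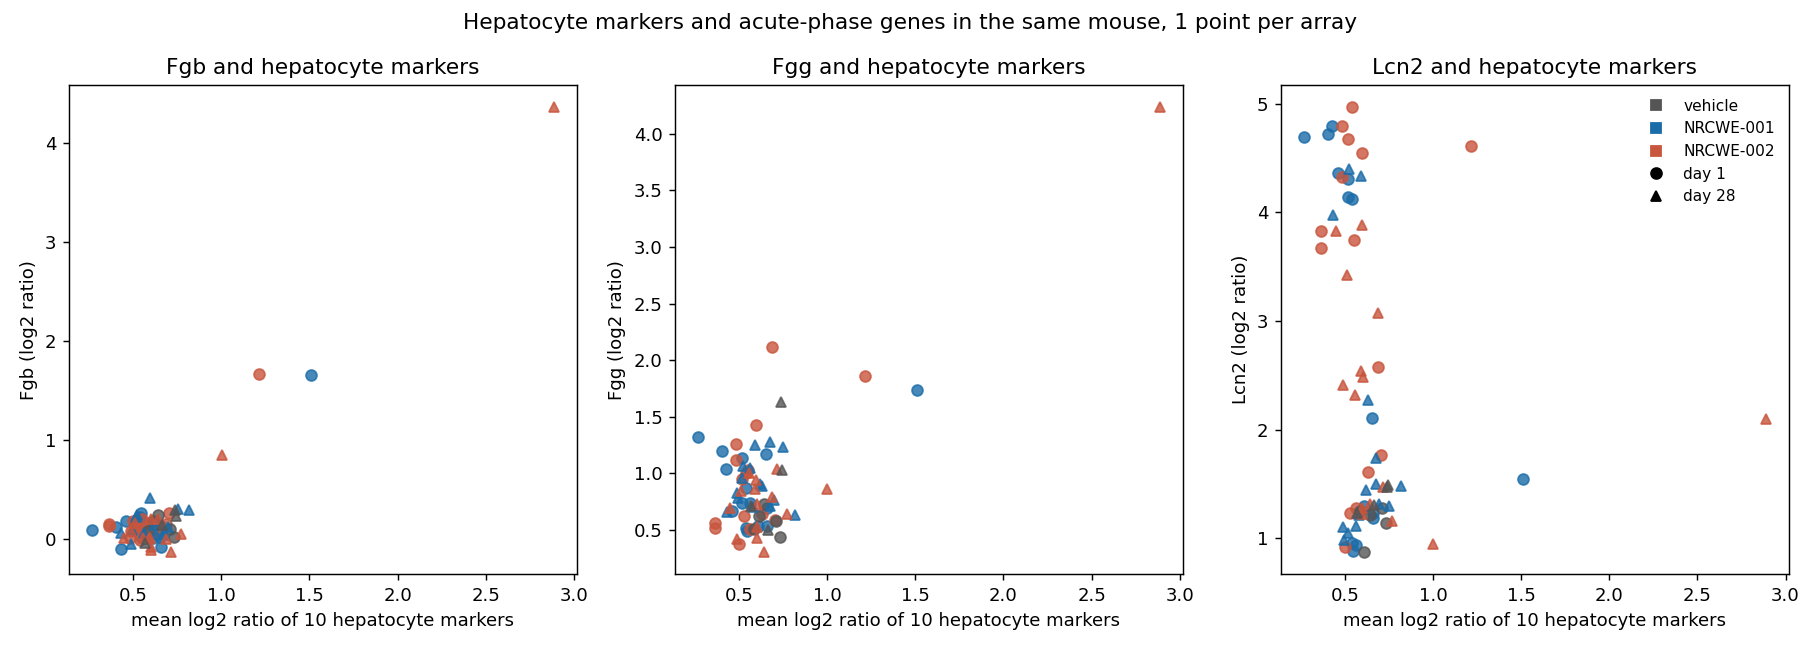
Log2 ratio of Fgb, Fgg and Lcn2 on the y axes against the mean log2 ratio of 10 hepatocyte marker genes on the x axes, 1 point per array, coloured by exposure and shaped by day. Fgb exceeds 0.41 on the 4 arrays with a marker mean over 1, and the arrays with Lcn2 over 4 have a marker mean of 0.27 to 0.60 except 1 at 1.22.

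The hepatocyte marker mean was 0.59 to 0.73 in vehicle mice of day 1. It was 0.27 to 0.54 at 162 µg NRCWE-001, 0.36 to 0.55 at 54 µg NRCWE-002 and 0.48 to 1.22 at 162 µg NRCWE-002 on that day, with 2, 4 and 7 of the 10 markers higher than in vehicle mice. The median changes of the list were -0.03, -0.03 and 0.06, and its lowest changes were those of Fabp1, at -1.74, -1.66 and -0.99. Neutrophil markers were raised in some but not all of the mice with high Lcn2 and orosomucoids, and their part in the result was not tested. The mean over 12 tested neutrophil markers was 1.02 to 1.46 in vehicle mice of day 1. It was 2.17, 1.41, 1.70, 2.02 and 1.14 in the 5 mice at 162 µg NRCWE-001 and 1.33 to 1.81 at 162 µg NRCWE-002. At 54 µg NRCWE-002, where Lcn2 was above all vehicle arrays in 5 of 5 mice, it was 1.91, 1.11, 1.43, 1.75 and 1.23. In these groups 9 to 12 of the 12 markers were well above background, and 10, 8 and 8 were higher than in vehicle mice. On day 28 at 162 µg the neutrophil mean was 0.87 to 1.54 under NRCWE-001 and 0.97 to 1.50 under NRCWE-002, against 1.06 to 1.41 in vehicle mice. For NRCWE-001 at 162 µg on day 1, 2 of the 12 neutrophil genes, the receptor genes Csf3r and Cxcr2, were called higher by 0.80 ± 0.19 (limma, adjusted p = 0.0272) and 0.69 ± 0.16 (adjusted p = 0.0201), and 1 of 9 macrophage and monocyte genes, Siglecf, was lower by -0.92 ± 0.24 (adjusted p = 0.0498). Of the 10 hepatocyte genes Fabp1, which was well above background on 69 of 69 arrays, was lower there by -1.74 ± 0.39 (adjusted p = 0.0145). For NRCWE-002 at 162 µg on day 1 limma called 0 genes of these 3 lists, with Csf3r at 0.62 ± 0.19 (adjusted p = 0.138). The neutrophil granule genes Elane, Mpo and Camp were well above background on 7, 66 and 51 of the 69 arrays.

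Counts of called members are set beside the share of all genes called by the same rule, which is an adjusted p below 0.05 in limma over all 17628 genes. The dose effect, a moderated F over the 3 doses, called 5 of 9 members for NRCWE-001 on day 1 (Lcn2, Orm1, Orm2, Hpx and Cp), beside 0.698% of all genes. It called 6 of 9 for NRCWE-002 on day 1 (the same and Itih4), beside 0.823%. On day 28 it called 0 members with NRCWE-001, beside 0.477% of all genes, and 0 with NRCWE-002, beside 0%. The count of 5 became 3 without replicate 1, 2 or 4 of 162 µg and 2 without replicate 3. Since the members were picked on these contrasts, the counts describe the pick and nothing is read from them.

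By single dose on day 1, 5 members were called at 162 µg NRCWE-001 (the same 5, beside 0.579% of all genes), 4 at 54 µg NRCWE-002 (Lcn2, Orm2, Hpx and Cp, beside 0.0624%) and 6 at 162 µg NRCWE-002 (beside 0.596%). No member was called at 54 µg NRCWE-001 or at 18 µg of either particle, beside 0% of all genes in each of the 3. At an unadjusted p below 0.05 there were 4 members at 54 µg NRCWE-001 and 0 at 18 µg. The share of all genes at an unadjusted p below 0.05 was not computed. Nothing is read from counts at that level, here or below. The counts of called members rested on single mice. Without replicate 5 the count at 162 µg NRCWE-001 was 6, with Itih4 gained, beside 290 of all 17628 genes. At 162 µg NRCWE-001 the count was 3 without replicate 1 or 4, at 54 µg NRCWE-002 it was 0 without replicate 1, without replicate 4 or without vehicle replicate 3, and at 162 µg NRCWE-002 it was 2 without replicate 2. The call of Itih4 at 162 µg NRCWE-002 did not survive the loss of 1 array in 9 of 10 cases, and was lost with the scanner's processed signals (0.63). Without the 4 arrays of raised hepatocyte markers 5 members were called there, with Orm1 (1.57) and Itih4 (0.96) lost and Fgg (0.90) gained. With slide as a fixed block 3 members were called at 54 µg NRCWE-001 and 7 at 54 µg NRCWE-002, and Itih4 was called at 162 µg NRCWE-001 as well (0.94), as it was with slide as a random block or with scan day as a block (0.91 each). With scan day as a block Hp was called at 162 µg NRCWE-002 (0.45). On day 28 limma called 0 members at each dose, beside 0.193%, 0% and 0.0454% of all genes at 18, 54 and 162 µg NRCWE-001 and 0%, 0% and 0.00567% for NRCWE-002. Lcn2 was the member with an unadjusted p below 0.05 at 162 µg of each particle, and Hpx and Fgb were those at 54 µg NRCWE-002.

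The median change over the 9 members was 0.11, 0.66 and 1.43 at 18, 54 and 162 µg NRCWE-001 on day 1, and 0.11, 1.42 and 1.31 for NRCWE-002. On day 28 it was -0.04, 0.05 and 0.32 with NRCWE-001 and 0.05, 0.23 and 0.22 with NRCWE-002. The median at 18 µg NRCWE-002 on day 1 was 0.54, 0.45 and 0.52 with slide as a fixed block, slide as a random block and scan day as a block, and that at 162 µg was 2.09 with processed signals. The medians of NRCWE-001 on day 28 lay on both sides of 0 under these settings, at 0.16 with processed signals at 18 µg and at 0.33 with processed signals and -0.23 with slide as a fixed block at 54 µg. Where no vehicle array was well above background, the sample-channel limits of Orm1, Orm2 and Fgb were also put in place of their changes in ratio, which mixes both scales. The medians at 54 and 162 µg on day 1 stayed as they were, and those at 18 µg NRCWE-002 on day 1, 18 µg NRCWE-001 on day 28 and 162 µg NRCWE-001 on day 28 became 0.03, 0.03 and 0.38. Arrays that share a slide gave the same directions for Lcn2 and Orm2 at 162 µg on day 1. This did not hold for every member and dose. At 18 µg NRCWE-001 on day 1 Orm1 was higher on 0 of 3 slides, against a group change of 0.11. At 162 µg NRCWE-001 Fgg was higher on 2 of 3. On the 3 slides with both a vehicle mouse and a mouse at 162 µg NRCWE-001 on day 1, Lcn2 was higher by 3.15 to 3.58 and Orm2 by 2.82 to 3.64, and on the 2 slides shared by vehicle and 162 µg NRCWE-002 Lcn2 was higher by 3.27 to 3.73 and Orm2 by 2.59 to 2.72. On day 28 the 2 slides shared by vehicle and 162 µg NRCWE-002 held none of the mice with high Lcn2, and the differences in Lcn2 were -0.09 to -0.00, while the 1 slide shared by vehicle and 162 µg NRCWE-001 gave 2.74.

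**Figure D4:**
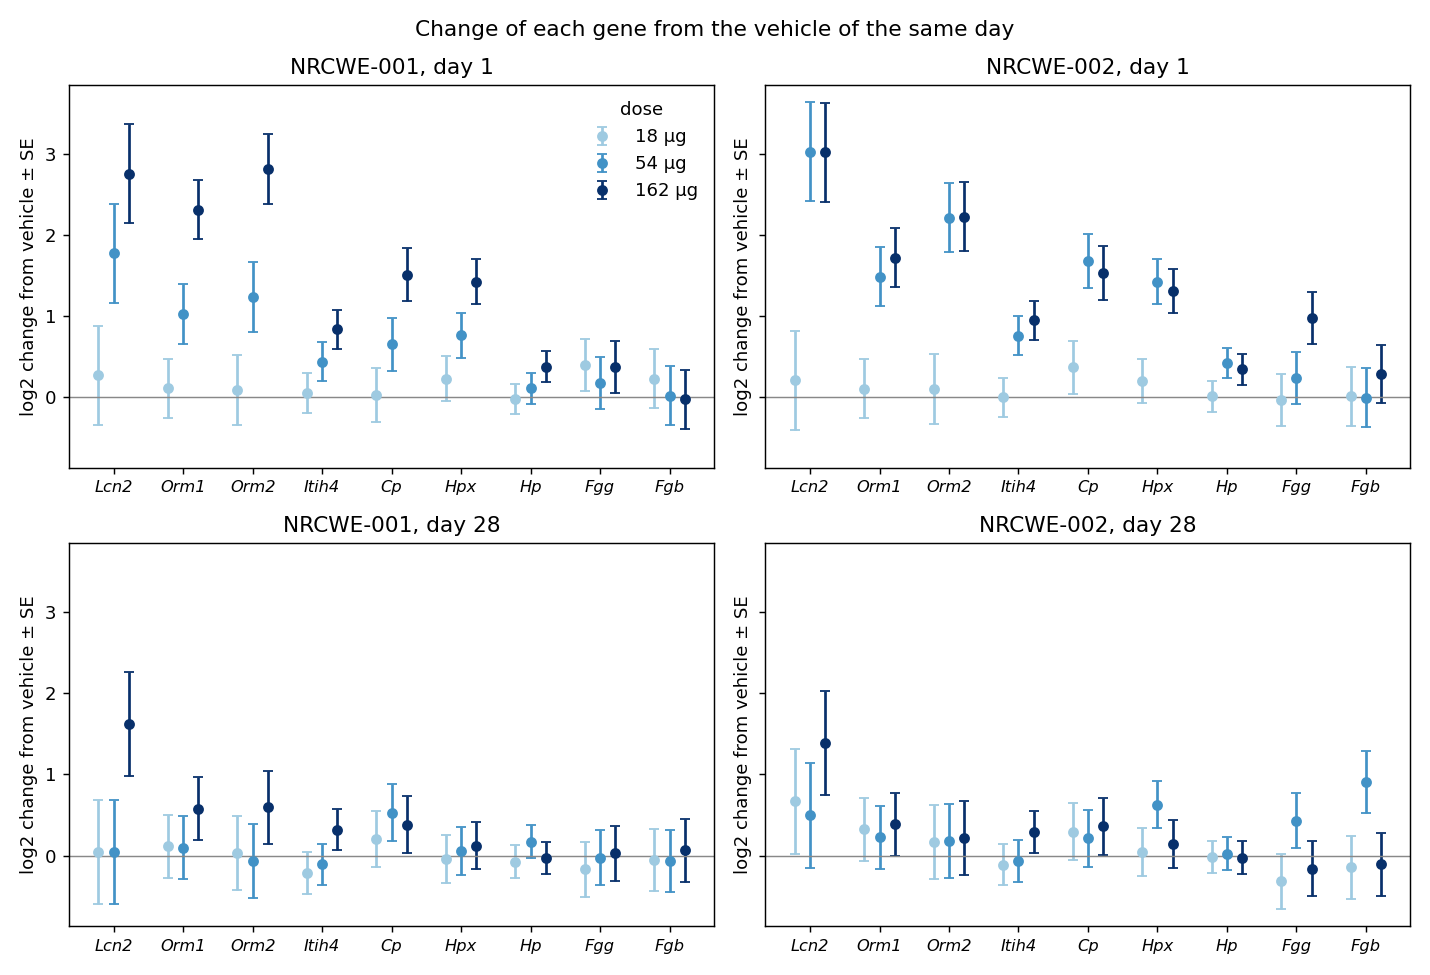
Log2 change of each gene from the vehicle of the same day (points, with SE from the limma fit as bars) at 18, 54 and 162 µg, in 1 panel per particle and day. Lcn2 at 54 µg is at 1.77 with NRCWE-001 and 3.03 with NRCWE-002 on day 1, and on day 28 Lcn2 at 162 µg lies above the other genes at 1.62 and 1.39.

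In several groups of both days the mice of a group differed in how many members were high. A mouse was counted for a member when its array lay above all vehicle arrays of its day, which on a single array held for 15.4% to 29.5% of all genes. The mice at 162 µg NRCWE-001 on day 1 had 8, 7, 8, 8 and 0 of 9 members above, and at 54 µg they had 7, 7, 7, 2 and 2. NRCWE-002 gave 8, 5, 8, 8 and 7 at 54 µg and 8, 8, 9, 8 and 7 at 162 µg, so no mouse of these groups was without. On day 28 at 162 µg the mice of NRCWE-001 had 7, 1, 3, 6 and 7 and those of NRCWE-002 had 1, 6, 0, 6 and 4. At lower doses of NRCWE-002 on day 28 they had 4, 3, 0, 3 and 5 at 18 µg and 6, 0, 2, 5 and 6 at 54 µg. Those of NRCWE-001 on day 28 had 2, 0, 3, 2 and 2 at 18 µg and 4, 4, 2, 1 and 1 at 54 µg. At 18 µg on day 1 the counts were 2, 1, 4, 5 and 1 for NRCWE-001 and 2, 1, 1, 5 and 3 for NRCWE-002. Lcn2 was above on 23 of the 30 exposed arrays of day 1 and on 15 of 30 on day 28. Itih4 was above on 16 and on 8, and on each of those Lcn2 was above as well. Orm2 was above together with Lcn2 on 18 of its 19 arrays on day 1 and on 9 of 12 on day 28.

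**Figure D5:**
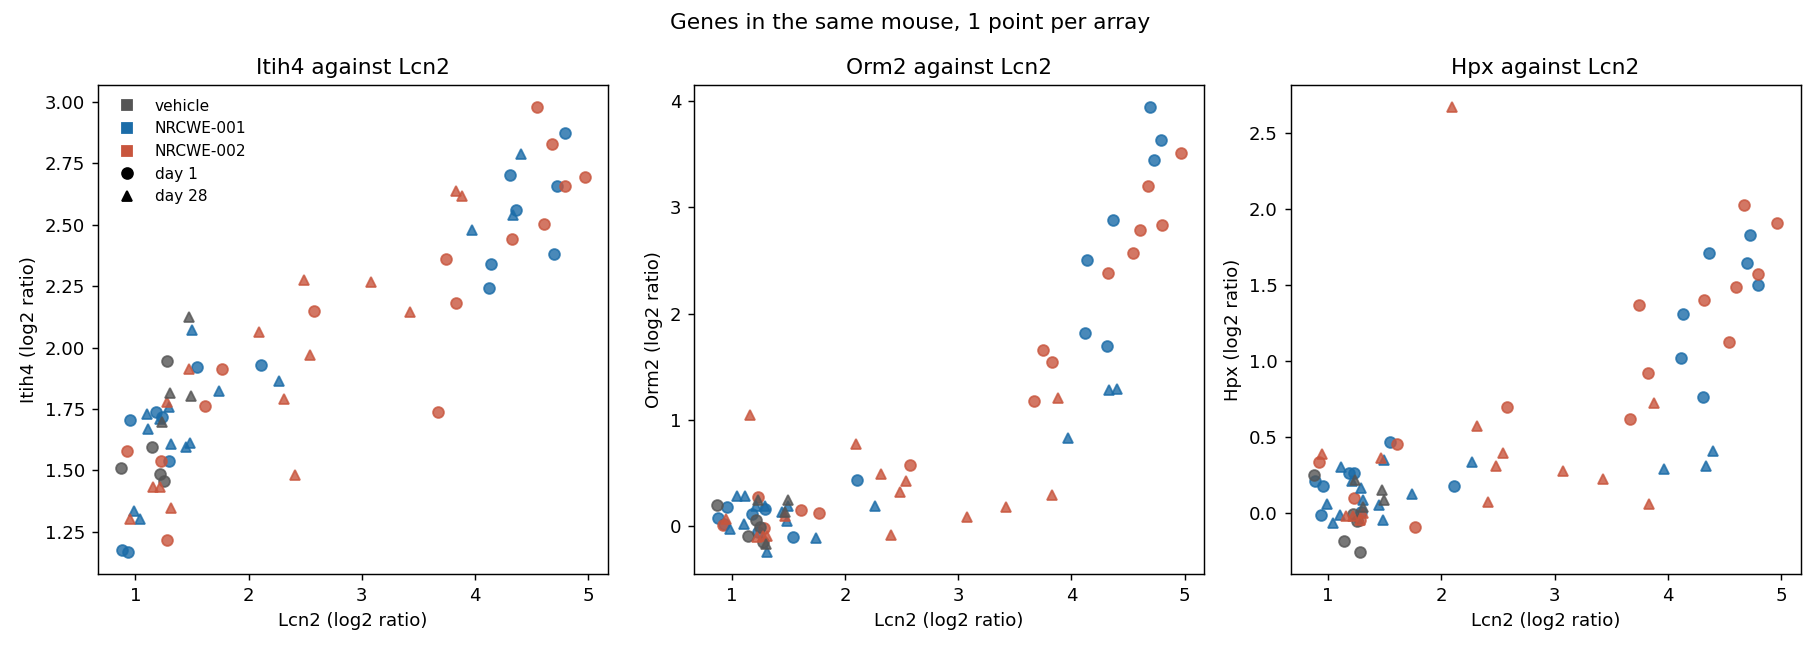
Log2 ratio of Itih4, Orm2 and Hpx on the y axes against that of Lcn2 on the x axes, 1 point per array, coloured by exposure, with circles for day 1 and triangles for day 28. Itih4 follows Lcn2 (r = 0.91 over the 69 arrays of both days together), and Orm2 reaches 3.94 on day 1 and 1.29 on day 28.

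The change at 162 µg was also set side by side for the days. The members were picked on these same arrays, so the differences are given with no p and nothing is read from the counts. By limma 0 of 9 members were called for each particle, beside 0% of all genes. The change of Orm2 on day 28 minus that on day 1 was -2.22 ± 0.63 under NRCWE-001 and -2.01 ± 0.63 under NRCWE-002, with 95% intervals of -3.47 to -0.97 and -3.26 to -0.76. For Hpx this difference was -1.30 ± 0.40 and -1.16 ± 0.40, and for Lcn2 it was -1.13 ± 0.89 and -1.63 ± 0.89. Without replicate 5 of 162 µg NRCWE-001 on day 1 it was -2.88 ± 0.53 for Orm2 and -2.28 ± 0.46 for Orm1, and the count was 2 members among 3 genes called in all.

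The charged and the uncharged particle were compared at equal doses, on arrays whose values were known when the members were picked. The differences are thus a description, given with no p, and nothing is read from the counts. Over the mean of the 3 doses limma called 0 of 9 members between NRCWE-002 and NRCWE-001 on day 1, beside 0.125% of all genes, and 0 on day 28, beside 4.75%. The largest of these day 1 differences were those of Lcn2 at 0.48 ± 0.35 and Cp at 0.46 ± 0.19. At single doses limma called 0 members in each of 6 comparisons. The shares of all genes were 0% at 18 µg, 0.13% at 54 µg and 0% at 162 µg on day 1, and 0.119%, 0.0284% and 0% on day 28. The widest differences on day 1 were at 54 µg, for Lcn2, Cp, Orm2 and Hpx, and none of them was called. Cp was higher under NRCWE-002 by 1.02 ± 0.33 (95% interval 0.37 to 1.68), with 4 of 5 arrays above all arrays of NRCWE-001. Lcn2 was higher by 1.25 ± 0.61 (0.03 to 2.47), Orm2 by 0.98 ± 0.43 (0.12 to 1.83) and Hpx by 0.66 ± 0.28 (0.11 to 1.21). For each of these the arrays of both particles overlapped. At 162 µg on day 1 Lcn2 differed by 0.26 (-0.95 to 1.48), Orm2 by -0.58 (-1.44 to 0.27) and Hpx by -0.12 (-0.67 to 0.44). These intervals lie on both sides of 0. Without replicate 5 of 162 µg NRCWE-001 the differences were -0.47 for Lcn2, -1.24 for Orm2 and -0.41 for Hpx, with 0 members called. On day 28 the widest difference was that of Fgb at 54 µg, where the NRCWE-002 group held the array with high hepatocyte markers.

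Another 4 gene lists cover the rest of the response. Of 21 other positive acute-phase genes tested, 5 were called higher at 162 µg NRCWE-001 on day 1 and 0 lower, with a list median of 0.22, and 4 higher at 162 µg NRCWE-002, with a median of 0.21, against medians of all genes near 0. Serpina3n, a serine protease inhibitor gene, rose by 1.52 ± 0.31 (limma, adjusted p = 0.00705) and 1.62 ± 0.31 (adjusted p = 0.00472). C3, the central complement gene, rose by 1.04 ± 0.25 (adjusted p = 0.0267) and 0.97 ± 0.25 (adjusted p = 0.0446), and Cd14, a receptor for bacterial lipopolysaccharide, by 1.33 ± 0.34 (adjusted p = 0.0489) and 1.58 ± 0.34 (adjusted p = 0.0110). Steap4, a metal reductase gene, rose by 0.63 ± 0.13 and 0.50 ± 0.13. Orm3, the remaining orosomucoid gene, rose by 0.79 ± 0.13 (adjusted p = 0.000549) with NRCWE-001, while with NRCWE-002 it differed by 0.44 ± 0.13 (adjusted p = 0.108). The third fibrinogen chain, Fga, was at -0.00 ± 0.10 at 162 µg NRCWE-002, and Crp and Apcs, which encode the pentraxins, at -0.04 each; these 3 were chosen after their values were seen. Leaving out 1 array moved the counts. For NRCWE-001 the count was 3 without any one of vehicle replicates 1, 3, 4 and 5 or of the exposed replicates 1, 2 and 3, and 1 without replicate 4. For NRCWE-002 it was 2 without any one vehicle replicate or without replicate 1 or 3, and 1 without replicate 2 or 4. The 8 negative acute-phase genes, which fall in the liver during the response, gave 0 calls by limma at 54 and 162 µg on either day, with list medians of 0.00 and 0.21 at 162 µg on day 1. At an unadjusted p below 0.05 there was 1 gene at 162 µg NRCWE-001 on day 1 and there were 4 at 54 µg NRCWE-002 on day 28, the group with the raised hepatocyte markers.

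Of 25 genes tested for the signals that induce the response, 5 were called higher at 162 µg NRCWE-001 on day 1 (Il1b, Osm, Osmr, Nfkbiz and Socs3) and 3 at 162 µg NRCWE-002 (Il1b, Socs3 and Nfkbia), with list medians of 0.12 and 0.11. Il1b, the interleukin 1 beta gene, rose by 1.62 ± 0.36 (limma, adjusted p = 0.0145) and 1.67 ± 0.36 (adjusted p = 0.0110), with 5 of 5 arrays above vehicle for each. Socs3, a feedback inhibitor of STAT3 signalling, rose by 0.69 ± 0.15 (adjusted p = 0.0131) and 0.61 ± 0.15 (adjusted p = 0.0344). Osm and its receptor gene Osmr rose by 0.25 ± 0.06 (adjusted p = 0.0463) and 0.39 ± 0.10 (adjusted p = 0.0383) for NRCWE-001. Il6 was not called, at 1.07 ± 0.32 (adjusted p = 0.127) with NRCWE-001 and 1.01 ± 0.32 (adjusted p = 0.146) with NRCWE-002, and both particles had 4 or 5 of 5 arrays above vehicle for it; Il6 was chosen after its values were seen. Leaving out 1 array moved these counts too. For NRCWE-001 the count was 3 without vehicle replicate 1, 3, 4 or 5 or exposed replicate 1, 2 without vehicle replicate 2, 1 without exposed replicate 3 and 0 without exposed replicate 4. For NRCWE-002 it was 1 without vehicle replicate 1, 2, 3 or 5 or exposed replicate 3, and 0 without exposed replicate 2 or 4. Over all doses and days 6 of the 25 genes were called at least once, and 3 without vehicle replicate 1, 2, 3 or 5 of day 1 or without replicate 4 of 162 µg NRCWE-001.

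Among 12 receptors and partners of the member proteins, Hmox1, which breaks down haem, and Fth1, which stores iron, were called, with list medians of 0.11 and 0.13 at 162 µg of the 2 particles on day 1. Hmox1 rose by 0.92 ± 0.17 (limma, adjusted p = 0.00337) at 162 µg NRCWE-001 on day 1 and by 0.79 ± 0.17 (adjusted p = 0.0470) at 54 µg NRCWE-002. Fth1 rose by 0.62 ± 0.12 (adjusted p = 0.00459) and 0.53 ± 0.12 (adjusted p = 0.0172) at 162 µg of the 2 particles. The call of Hmox1 at 54 µg NRCWE-002 was lost without any one of vehicle replicates 1 to 5 or of exposed replicates 1, 3 and 4, and that of Fth1 at 162 µg NRCWE-002 without vehicle replicate 3 or 4 or exposed replicate 2, 3 or 4. Without replicate 4 of 162 µg NRCWE-001, 1 of the 2 calls there was left. Cd163, the receptor gene for haptoglobin, was at -0.11 ± 0.21 at 162 µg NRCWE-002 and was chosen after its values were seen. On day 28 limma called 0 genes of the 4 lists at any dose, with 0 to 9 genes of a list at an unadjusted p below 0.05.

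Over all other genes, the 5 most like the mean profile of the members across the 69 arrays were Saa2 (Pearson r = 0.90), Saa1 (0.89), Saa3 (0.87), Timp1 (0.85) and Lrg1 (0.85), of 17505 genes ranked. Within groups, after group means were removed, the correlations were 0.75, 0.72, 0.70, 0.64 and 0.72. Of the members, each of which enters the profile, Hpx lay closest to it (r = 0.94) and Fgb farthest from it (r = 0.30). With Lcn2, Orm1, Orm2, Hp, Cp and Itih4, Fgb had r between -0.11 and 0.05, while Fgb and Fgg had 0.76 over the 69 arrays and 0.82 within groups. On 1 array, replicate 5 of 54 µg NRCWE-002 on day 28, Fgb was at 4.36 and Fgg at 4.24. On the other arrays they reached 1.66 and 2.12 at most, and r without that array was not computed. The arrays share slides and a reference, and no p is given.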

How the data were processed

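RNA of 69 mouse lungs was hybridised to 2-colour Agilent arrays, with lung RNA in Cy5 and a common mouse reference RNA in Cy3 and no dye swap. The deposited values were spot and background intensity from Agilent Feature Extraction 11.0.1.1 and a table of the authors' normalized log2 ratios, used as an alternative (r = 0.987 to 0.995 with the values here). Here median intensities were background-corrected (normexp, offset 50), loess-normalized within arrays and cleared of control and outlier spots. Probes well above background in lung RNA on at least 4 arrays were kept (36452 of 41174), and a gene was the median of its probes. Gene symbols came from RefSeq (GRCm38.p6) through transcript accessions, giving 17628 genes. Limma 3.58.1 in R 4.3.3 fitted 14 group means, and genes with a Benjamini-Hochberg adjusted p below 0.05 were called. The fit was tested on simulated data with independent arrays and no slide effect, which cannot show how slide bears on its p-values. The number of arrays limits the precision.

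The members and lists were chosen with earlier results of these data known. Named were all members, of each list the called genes with the largest changes (at most 5 per comparison), and the 5 genes most like the members' mean profile. Nothing in the labels ties an array to a culture, litter or cage. Arrays that share a slide were correlated (0.47 after group means were removed), and the main fit left slide out. Its p-values therefore rest on the spread between mice and between slides together, and treat the arrays as independent. Fits with slide as a block are among the alternatives. Replicate numbers follow the deposited order. Alternatives were the scanner's processed signals, median centring, the deposited log2 ratios, no filter on dim probes, slide or scan day as a block, and leaving out each array; leaving out the 4 arrays with raised hepatocyte markers was added after the data were examined.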

Additional observations from a re-analysis of the deposited data

Results flagged for a closer look

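Of 126 sets of a member in a group of 5 or 4 mice, 11 held 1 mouse far from the others by Dixon's test. Chance alone gives about 1 in 20 for independent sets. These sets share mice, and several members went together, so the count of 11 is not compared with that rate. Replicate 5 of 162 µg NRCWE-001 on day 1 was far below its group for Lcn2 (0.96), Orm2 (0.18) and Hpx (0.18). Replicate 5 of 162 µg NRCWE-002 on day 1 was far below its group for Lcn2 (2.58) and Orm2 (0.58). Replicate 5 of 54 µg NRCWE-002 on day 28 was far above for Fgb (4.36), Fgg (4.24) and Hpx (2.67). Fgb was far above the rest on replicate 3 of 18 µg NRCWE-001 on day 1 (1.66) and on replicate 3 of 162 µg NRCWE-002 on day 1 (1.66). Itih4 was far above the rest on vehicle replicate 4 of day 1 (1.95).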

How the results depend on the processing

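No result changed direction past the threshold under any alternative run. Of 42 summary results, those with the deposited log2 ratios and without the filter on dim probes had the same counts of members called. Without the 4 arrays of raised hepatocyte markers 5 members were called at 162 µg NRCWE-002 on day 1 in place of 6, with Orm1 and Itih4 lost and Fgg gained, and there 2 other positive acute-phase genes, 1 inducing signal and 0 receptors or partners were called. With processed signals the median change of the members was 2.09 at 162 µg NRCWE-002 on day 1, and 0.16 and 0.33 at 18 and 54 µg NRCWE-001 on day 28, with 3 other positive acute-phase genes and 1 receptor or partner called. Median centring gave 1 member called between the particles on day 28, 1 inducing signal and 1 receptor or partner. Slide as a fixed block gave 3 members called at 54 µg NRCWE-001 and 7 at 54 µg NRCWE-002 on day 1, medians of 0.54 at 18 µg NRCWE-002 on day 1 and -0.23 at 54 µg NRCWE-001 on day 28, 8 other positive acute-phase genes and 4 receptors or partners. Slide as a random block gave 3 and 7 members, medians of 0.45 and -0.16, and 4 receptors or partners. Scan day gave 7 members at 54 µg NRCWE-002 on day 1, a median of 0.52 at 18 µg NRCWE-002 and 5 receptors or partners. Leaving out each array in turn gave 2 to 6 members by the dose effect of NRCWE-001 on day 1, 3 to 6 at 162 µg NRCWE-001, 0 to 5 at 54 µg NRCWE-002 and 2 to 6 at 162 µg NRCWE-002 on day 1, and 0 to 2 between the days at 162 µg NRCWE-001. It gave 3 to 7 inducing signals. The cause was not tested. No paired analysis was possible because the labels give the groups no shared replicate numbers, and arrays were matched by slide alone, in the slide blocks above. Each member had 1 probe, so single probes could not be compared.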
